A study of Mus musculus with 9 samples.

Results

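The genes described here are those of the major histocompatibility complex (MHC) and of antigen processing in 3T3-L1 cells, mouse fibroblasts of an established line that turn into fat-storing adipocytes on induction. They were chosen by name: every gene whose symbol starts with H2-, the prefix of the mouse MHC, and B2m, Tap1, Tap2, Tapbp, Psmb8, Psmb9, Psmb10, Psme1, Psme2, Erap1, Nlrc5, Ciita and Cd74. This gave 48 genes of the 19094 listed in at least 1 sample, 35 with the H2- prefix and 13 named singly. Of these, 32 were listed in all 9 samples and 16 in only some of them. The symbol prefix also takes in H2-Ke6, which encodes a hydroxysteroid dehydrogenase and not an MHC molecule.

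Almost every nucleated cell shows fragments of its own proteins to cytotoxic T cells on class I molecules, each a heavy chain paired with the light chain β2-microglobulin. The proteasome cuts proteins into peptides, the TAP transporter carries them into the endoplasmic reticulum, Erap1 trims them and tapasin holds the empty class I molecule at the transporter until a peptide fits. Interferons raise most of these genes and bring in the immunoproteasome subunits, which replace the constitutive catalytic ones. Class II molecules instead show peptides from endosomes to helper T cells. They are made mainly by professional antigen-presenting cells, under the control of Ciita, with the invariant chain Cd74 and the peptide editor H2-DM as partners.

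RNA was sequenced at day 0, day 4 and day 8 of differentiation, with 3 replicates per day. Day 0 cells were harvested before the induction medium, which holds dexamethasone, IBMX and insulin. Day 4 cells had received induction medium for 2 days and maintenance medium with insulin for 2 days, and day 8 cells a further 4 days of maintenance medium. Day 4 against day 0 is called the early phase, day 8 against day 4 the late phase and day 8 against day 0 the whole process. All samples are of the same line, with no genetic change or further treatment given. The labels call the cells adipocytes on every day, yet Adipoq (adiponectin) had 15, 14 and 7 counts in the day 0 samples against 9184 to 13441 at day 4 and 18448 to 20973 at day 8, so by this marker the day 0 samples were not adipocytes. All 7 adipocyte markers examined were upregulated in the early phase. The extraction label describes a dissected and frozen tissue, which does not match a cell line, and it was not used here. Each sample was a mixture of RNA from cultured cells, and nothing states that the replicates were separate cultures, so p-values measure the spread between these samples, which may be technical. In such bulk samples, fewer cells expressing a gene and less RNA of it per cell cannot be told apart.

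The samples held from 18216114 to 20452144 expected counts each. The deposited expected counts are estimates that share reads between similar genes. They were scaled with TMM factors to CPM (a gene's count relative to the library total) and tested with edgeR's quasi-likelihood test over all 13154 genes that passed its filter on low counts. Below, a gene rose or fell where its Benjamini-Hochberg adjusted p was under 0.05, and it was upregulated or downregulated where the fold change was also above 2. Levels are compared between genes only as FPKM, which is scaled to gene length.

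The promoters of a few genes are shown because the results turn on them: the heavy chains H2-D1 and H2-K1 and their partner B2m, which fell together, Tap1, which fell furthest among the transporter genes, and H2-T23, which rose while most other class I genes fell. The windows run from 250 bases before to 50 bases after the RefSeq start on GRCm38.p6. Those shown are H2-D1 at chr17:35262844-35263143 on the plus strand, H2-K1 at chr17:34000298-34000597 on the minus strand (the upstream one of its annotated starts), B2m at chr2:122147437-122147736 on the plus strand, Tap1 at chr17:34187306-34187605 on the plus strand and H2-T23 at chr17:36032652-36032951 on the minus strand. Each reads 5′ to 3′ along the gene, and capitals mark matches on either strand to the motifs named below.
H2-D1: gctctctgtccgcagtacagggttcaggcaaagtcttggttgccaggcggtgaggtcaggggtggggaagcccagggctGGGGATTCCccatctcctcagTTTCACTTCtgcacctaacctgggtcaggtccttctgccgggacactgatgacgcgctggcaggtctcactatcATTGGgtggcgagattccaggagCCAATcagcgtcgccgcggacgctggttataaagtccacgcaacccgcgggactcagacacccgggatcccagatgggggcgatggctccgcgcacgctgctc
H2-K1: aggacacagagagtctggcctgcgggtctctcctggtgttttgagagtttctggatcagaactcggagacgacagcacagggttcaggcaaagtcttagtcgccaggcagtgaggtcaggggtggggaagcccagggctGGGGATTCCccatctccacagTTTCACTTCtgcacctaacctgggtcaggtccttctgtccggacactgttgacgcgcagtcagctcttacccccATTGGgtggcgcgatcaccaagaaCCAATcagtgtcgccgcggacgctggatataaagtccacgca
B2m: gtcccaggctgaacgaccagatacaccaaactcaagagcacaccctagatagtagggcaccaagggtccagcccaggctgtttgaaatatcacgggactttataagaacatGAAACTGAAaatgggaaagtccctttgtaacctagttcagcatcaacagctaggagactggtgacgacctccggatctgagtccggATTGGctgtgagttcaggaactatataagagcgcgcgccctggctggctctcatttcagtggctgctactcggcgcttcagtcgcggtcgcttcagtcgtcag
Tap1: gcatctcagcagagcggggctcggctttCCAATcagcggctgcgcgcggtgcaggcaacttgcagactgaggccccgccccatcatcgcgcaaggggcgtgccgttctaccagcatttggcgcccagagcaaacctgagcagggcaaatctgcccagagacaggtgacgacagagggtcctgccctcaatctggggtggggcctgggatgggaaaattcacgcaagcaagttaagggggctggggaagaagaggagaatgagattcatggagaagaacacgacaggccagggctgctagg
H2-T23: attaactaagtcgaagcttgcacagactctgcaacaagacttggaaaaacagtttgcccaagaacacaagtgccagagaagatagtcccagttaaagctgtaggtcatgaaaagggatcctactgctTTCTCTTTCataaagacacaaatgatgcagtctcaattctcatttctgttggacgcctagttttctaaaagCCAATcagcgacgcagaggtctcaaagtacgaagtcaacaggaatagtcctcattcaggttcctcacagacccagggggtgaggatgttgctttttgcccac

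H2-D1 and H2-K1 share a run of 47 identical bases in these windows. In both, a kappaB match (GGGNNTTCC) is followed by a match to an interferon regulatory factor (IRF) element (GAANNGAAA), starting 171 and 150 bases before the start of H2-D1 and 111 and 90 bases before that of H2-K1. B2m has instead the core of an interferon-stimulated response element (GAAANNGAA) 139 bases before its start, and H2-T23 has the same core on the other strand 123 bases before its start. All but Tap1 also hold a CCAAT box (CCAAT) closer to the start, and the only match in Tap1 is a CCAAT box 222 bases before it. The start of Tap1 lies 226 bases from that of Psmb9 on the opposite strand, and their windows share 275 of 300 bases.

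Of the 48 genes, 33 matched a RefSeq window by gene ID. A gene counts below where any of its windows matches, while the percentages are shares of windows. H2-K1, H2-DMa, H2-M9 and Psme2 have more than 1 window. The kappaB letters were found in 7 of the 33 (H2-D1, H2-K1, H2-M2, H2-Oa, H2-Q4, H2-Q6 and H2-Q7), against 5.82% of all 32851 windows. The IRF letters, which were searched for only after the first windows had been read, occurred in 9, against 7.52% of all windows. The response element core was found in 5 (B2m, Erap1, H2-T22, H2-T23 and Psme1; 8.56% of all windows), the GAS element (TTCNNNGAA) in 3 (H2-DMb2, H2-M3 and Psmb8; 8.3%), and the X1 box of MHC promoters (CTAGCAAC) in H2-Eb2 (1.32%). A cyclic AMP element (TGACGTCA) was found in none of the 33 (1.79%), and the CCAAT box in 25 (37.41%). The IRF and response element letters can overlap. A match describes letters in these windows and no binding was measured. Genes that lie side by side or are copies of each other share sequence and are not independent cases.

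B2m was the highest at day 0, at 1590 ± 134 FPKM (SD, n = 3), followed by H2-D1 at 239 ± 30.02 and Tapbp at 175 ± 5.93. H2-K1 (91.9 ± 8.10), H2-L (87.5 ± 12.7), Psme1 (80.9 ± 2.43) and Psme2 (78.9 ± 2.46) came next and differed from their neighbours in this order by less than their spread. H2-T10, Cd74, Psmb10, Tap1, H2-Q4 and Tap2 lay between 17.6 and 41.8 FPKM on average. Of the other tested genes, H2-T23 (9.48), H2-M3 (8.79), Erap1 (8.63) and H2-Ke6 (8.56) were the highest and H2-Q1 (0.49) the lowest.

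**Figure D1:**
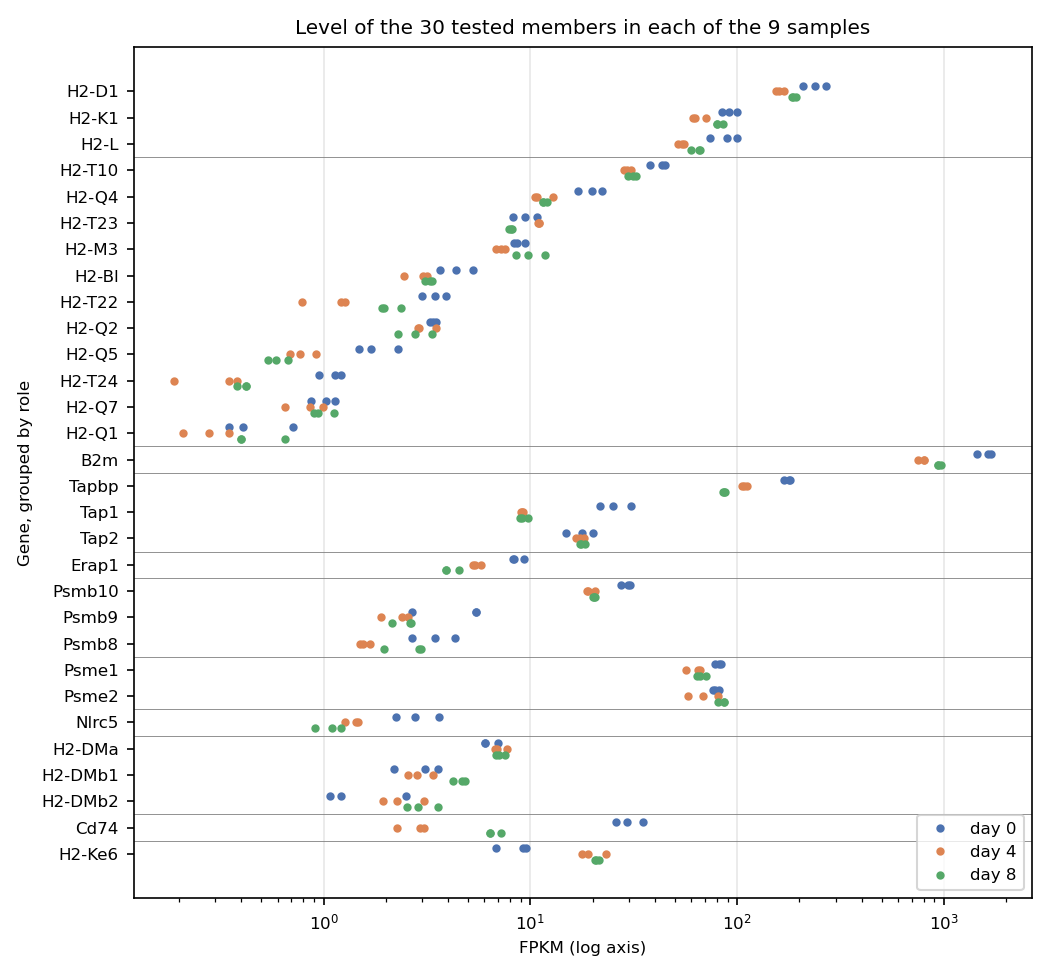
FPKM on a log axis for the 30 tested genes, grouped by role, with a point for each of the 9 samples. B2m lies highest, at 1438 FPKM or more in each day 0 sample and at 969.5 FPKM or less in each later one, and Cd74 shows the widest gap between day 0 and day 4.

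The filter kept 30 of the 48 genes. The 18 left out had at most 13.14 counts in any sample: 14 non-classical class I genes, the class II chains H2-Ab1 and H2-Eb2, H2-Oa and Ciita. A depth of this size sets the floor of detection, taken as 3 counts, at 0.147 to 0.165 CPM.

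In the early phase 6 of the 30 tested genes were downregulated, Cd74, H2-Q5, H2-T22, H2-T24, Psmb8 and Tap1, against 7.98% of all tested genes, and 1 was upregulated, H2-Ke6, against 9.77%. By adjusted p alone 19 fell and 3 rose, where 33.7% of all tested genes fell and 35.5% rose. The median log2 fold change of the 30 was -0.54, with 24 below 0, and that of all tested genes was 0.02. In the late phase only Cd74 was upregulated (background 4.24%) and 0 were downregulated (2.81%) in edgeR. By adjusted p alone 10 rose (22.5%) and 3 fell (22.7%): Erap1, H2-T23 and Tapbp. The same 3 falls were counted at an unadjusted p under 0.05, and DESeq2 and limma also called 0 downregulated. The median of the 30 was 0.19, against -0.01 for all tested genes. Over the whole process 5 were downregulated, Cd74, H2-Q5, H2-T24, Nlrc5 and Tap1 (background 7.7%), and H2-Ke6 was upregulated (10.3%). By adjusted p alone 16 fell (36.2%) and 6 rose (34.8%), with a median of -0.32 against -0.02 for all tested genes. The early phase and the whole process share the day 0 samples, so their values are set side by side and are not separate evidence.

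**Figure D2:**
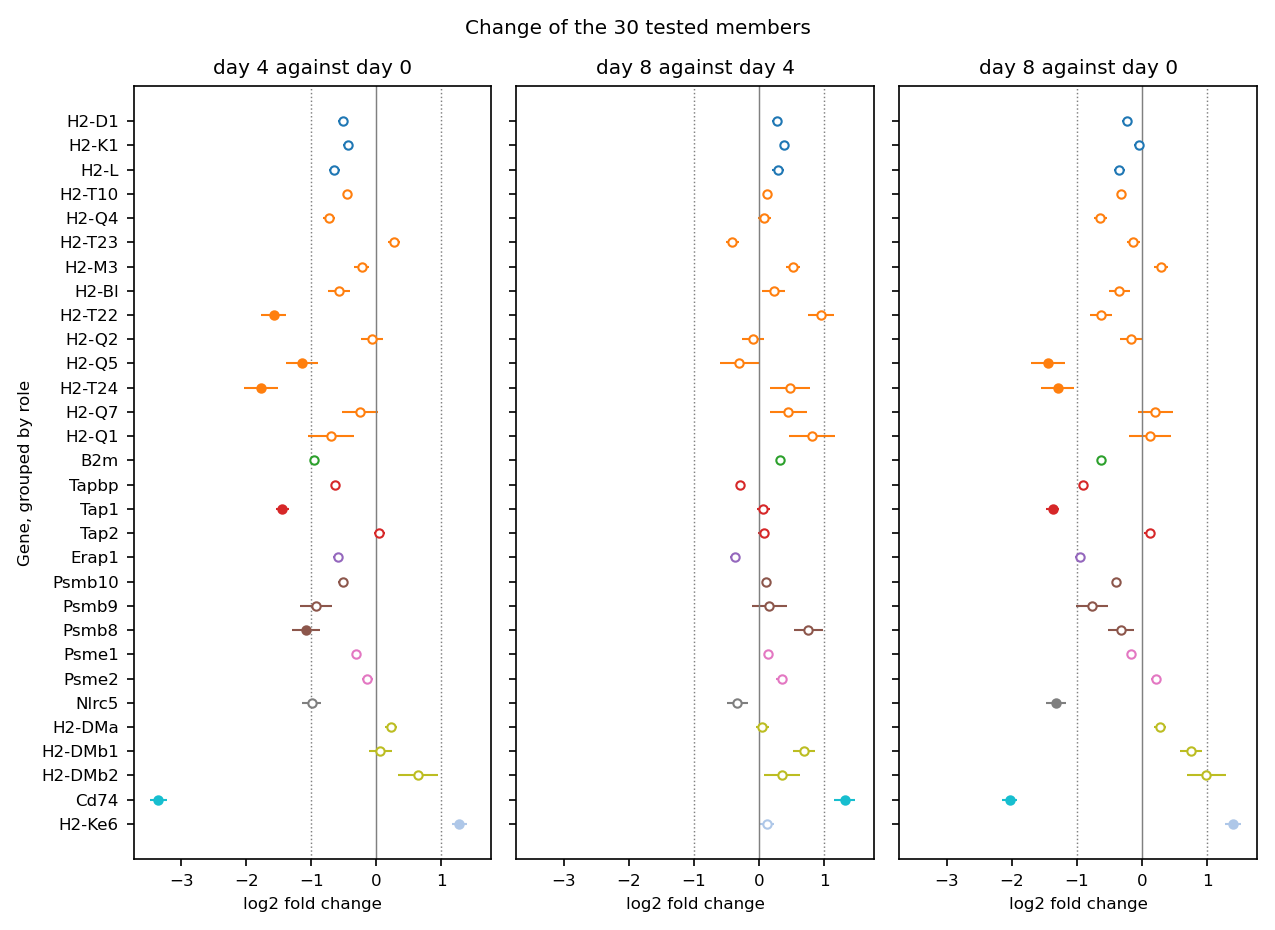
Log2 fold change of the 30 tested genes in the early phase, the late phase and the whole process, with bars of 1 SE, colours by role, filled points for up- or downregulated genes and dotted lines at 2-fold. In the early phase 24 genes lie left of 0, and in the late phase 6 do.

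B2m (gene ID 12010), the class I light chain, was at 1362, 1145 and 1319 CPM at day 0, at 672, 635 and 671 at day 4 and at 831, 812 and 823 at day 8. The days did not overlap, and day 4 was the lowest. B2m fell by 0.95 on the log2 scale in the early phase (SE 0.06, 1.93-fold lower, edgeR adjusted p = 4.6e-10), rose by 0.32 in the late phase (SE 0.06, adjusted p = 0.00033) and ended 0.63 lower than it began (log2 fold change -0.63, SE 0.06, adjusted p = 6.7e-08). None of its 50-base stretches occurs in another gene's annotated transcript, and its counts were whole numbers in all 9 samples.

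The classical heavy chains H2-D1, H2-K1 and H2-L, which present peptides to CD8+ T cells, also fell in the early phase, each by less than B2m on the log2 scale, and rose in the late phase. H2-D1 was at 447, 343 and 398 CPM at day 0, at 267, 278 and 291 at day 4 and at 327, 335 and 349 at day 8. Every day 4 sample lay below every sample of the other days, while day 0 and day 8 overlapped. H2-D1 fell in the early phase (log2 fold change -0.51, SE 0.07, adjusted p = 1.2e-05) and rose in the late phase (0.27, SE 0.07, adjusted p = 0.0059). Its difference over the whole process (-0.23, SE 0.07, adjusted p = 0.0088) rested on day 0 replicate 1, without which it was -0.14 (adjusted p = 0.068).

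H2-K1 was at 160, 133 and 146 CPM at day 0, at 105, 103 and 117 at day 4 and at 137, 138 and 149 at day 8. It fell by 0.44 in the early phase (SE 0.07, adjusted p = 2.4e-05), rose by 0.39 in the late phase (SE 0.07, adjusted p = 0.00021), and its day 8 samples lay within the range of day 0. The log2 fold change over the whole process was -0.05 (SE 0.07, adjusted p = 0.5). H2-L fell by 0.64 in the early phase (SE 0.08, adjusted p = 4.3e-06), rose by 0.29 in the late phase (adjusted p = 0.011) and stayed below its day 0 level (-0.35, adjusted p = 0.0013).

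Among the 11 tested non-classical class I genes the steepest falls were in genes of low level. H2-T22, whose product is bound by some γδ T cells, was at 6.56, 4.97 and 5.79 CPM at day 0, at 2.14, 2.28 and 1.37 at day 4 and at 3.52, 3.44 and 4.32 at day 8. The days did not overlap. It fell 2.99-fold in the early phase (log2 fold change -1.58, SE 0.19, adjusted p = 1.5e-06) and rose by 0.96 in the late phase (SE 0.20, adjusted p = 0.001). H2-T24 fell from 2.30 ± 0.283 CPM to 0.668 ± 0.234 (log2 fold change -1.77, SE 0.26, adjusted p = 1.7e-05) and stood at 0.930 ± 0.0508 at day 8. These are 42.23 to 50.79 counts per sample at day 0 and 8.47 to 16.25 at day 4. H2-Q5 fell from 2.03 ± 0.466 CPM to 0.919 ± 0.138 (log2 fold change -1.14, SE 0.25, adjusted p = 0.00071) and to 0.741 ± 0.0927 at day 8. Without day 0 replicate 1 its early change was -0.94 (adjusted p = 0.0067), short of 2-fold.

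H2-T23, which encodes Qa-1, a presenter of class I leader peptides to receptors of natural killer cells, went the other way. It was at 13.5, 10.2 and 11.8 CPM at day 0, at 14.4, 14.3 and 14.4 at day 4 and at 10.5, 11.0 and 11.0 at day 8. All day 4 samples lay above all others, and day 8 overlapped day 0. The rise of 0.28 in the early phase (SE 0.10, adjusted p = 0.018) was lost without day 0 replicate 2 (0.18, adjusted p = 0.089) and with library size in place of TMM factors (0.21, adjusted p = 0.059). The fall of 0.41 in the late phase (log2 fold change -0.41, SE 0.10, adjusted p = 0.0028) kept its direction and side of the threshold in all 20 alternatives.

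H2-T10 and H2-Q4, at higher levels, fell by 0.44 (adjusted p = 8.2e-06) and 0.72 (adjusted p = 5e-06) in the early phase and did not pass the test in the late phase. H2-M3, which presents N-formylated peptides of bacteria and mitochondria, was at 11.9 ± 0.843, 10.2 ± 0.454 and 14.7 ± 2.32 CPM on the 3 days and rose by 0.52 in the late phase (SE 0.11, adjusted p = 0.0011). H2-Bl fell by 0.57 in the early phase (adjusted p = 0.0057). H2-Q1, H2-Q2 and H2-Q7 passed the test in no comparison, with SEs of 0.16 to 0.36 on the log2 scale.

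The class I heavy chain genes are close copies, and reads that fit several of them are divided by the estimation. All or all but 1 of the 9 samples gave fractional counts for each of the tested heavy chain genes. In GENCODE vM21 transcripts, 32.89% of the 50-base stretches of H2-T10 occur in other genes, most often H2-T22, so H2-T10 is uncertain. The share was 18.6% for H2-T22, 15.44% for H2-D1, 15.21% for H2-Q4, 14.0% for H2-Q5, 13.14% for H2-T23, 7.07% for H2-K1 and 2.43% for H2-T24. H2-L, H2-Q8, H2-Q9 and H2-T9 have no transcript in that annotation, so overlap with them was not counted. The shares of the other genes may thus be too low, and none can be given for H2-L. Mouse strains also differ in these genes, and 3T3-L1 cells do not come from the reference strain; the effect of that on mapping was not tested.

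A sum over the 28 heavy chain genes does not depend on how reads were divided among them. It came to 826 ± 97.8 CPM at day 0, 587 ± 22.2 at day 4 and 703 ± 21.7 at day 8, which is 71.0% and 85.1% of day 0. H2-D1, H2-K1, H2-L and H2-T10 made up 89.18% to 91.24% of it in every sample. Entered in the edgeR fit as a single gene, the sum fell by 0.50 in the early phase (log2 fold change -0.495, SE 0.07, adjusted p = 7.5e-06), rose by 0.26 in the late phase (adjusted p = 0.0051) and ended lower than at day 0 (-0.23, adjusted p = 0.006). On the FPKM scale the heavy chains together were from 31.45% to 33.94% of B2m in the day 0 samples, from 42.24% to 45.37% in those of day 4 and from 41.75% to 44.22% in those of day 8. The ratio was higher in every day 4 and day 8 sample than in any day 0 sample.

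**Figure D3:**
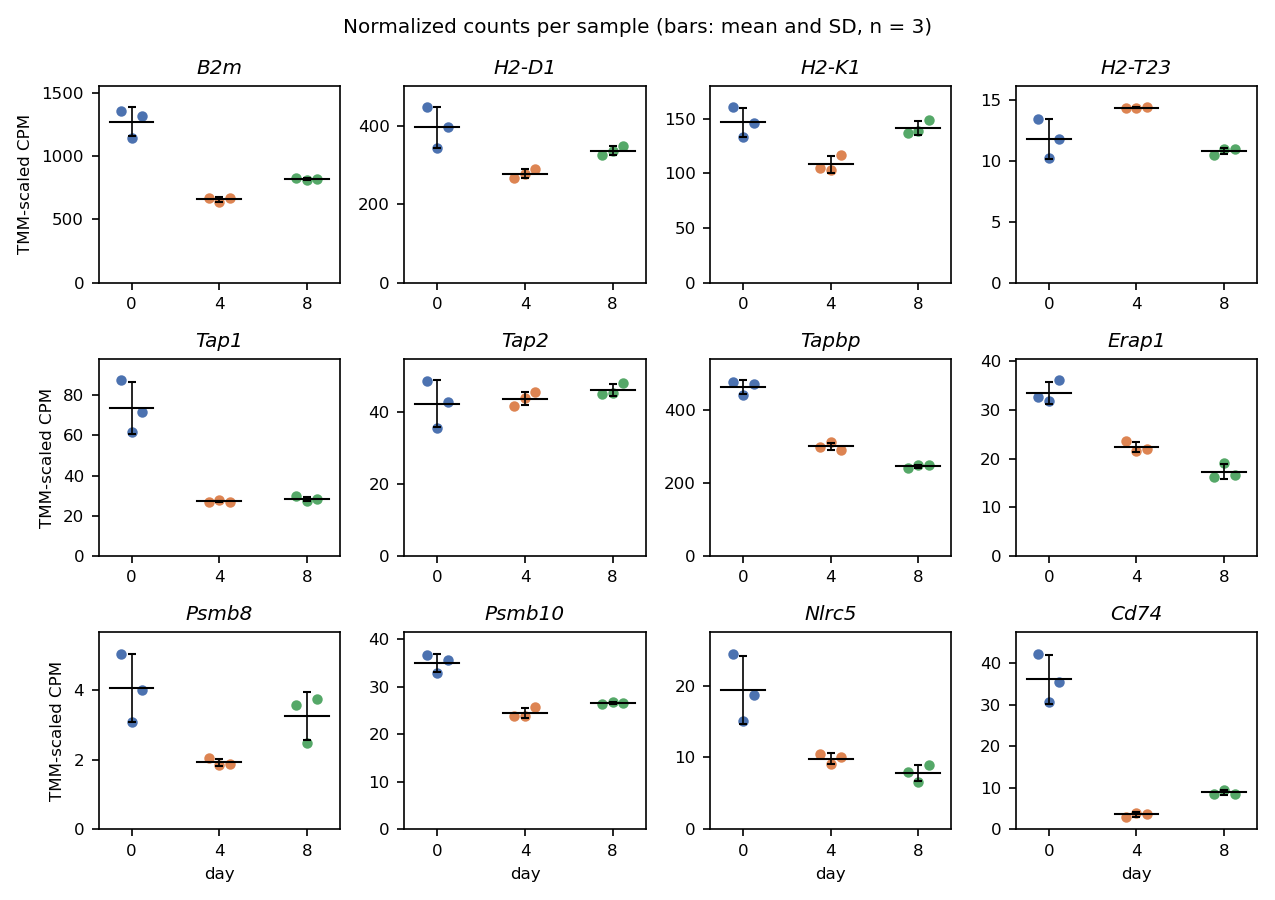
TMM-scaled CPM in each sample for 12 genes by day, each axis starting at 0, with the mean and SD (n = 3). B2m, H2-D1 and H2-K1 dip at day 4, Tap1 and Cd74 drop at day 4 and stay below day 0, Tapbp and Erap1 step down at day 4 and again at day 8, H2-T23 peaks at day 4 and the days of Tap2 overlap.

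The TAP transporter is built from the products of Tap1 and Tap2, and their RNAs parted. Tap1 (gene ID 21354) was at 87.4, 61.6 and 71.8 CPM at day 0, at 27.0, 27.6 and 26.9 at day 4 and at 29.6, 27.4 and 28.4 at day 8. Every day 0 sample was more than 2-fold above every later sample. Tap1 fell 2.71-fold in the early phase (log2 fold change -1.44, SE 0.10, adjusted p = 1.2e-09) and its late change was 0.07 (adjusted p = 0.63). Tap2 was at 48.5, 35.5 and 42.6 CPM at day 0, at 41.7, 43.8 and 45.4 at day 4 and at 44.8, 45.1 and 48.0 at day 8. Its days overlapped, and its log2 fold changes were 0.05 (SE 0.09, adjusted p = 0.65), 0.08 (adjusted p = 0.49) and 0.12 (SE 0.09, adjusted p = 0.21) in the early phase, the late phase and the whole process.

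In FPKM, Tap1 was above Tap2 in every day 0 sample, with ratios of 1.52, 1.46 and 1.42, and below it in every later sample, with ratios of 0.54, 0.53 and 0.50 at day 4 and 0.56, 0.51 and 0.50 at day 8. The log2 ratio fell by 1.48 in the early phase. A two-sided exact permutation test gave p = 0.1 (0.12 adjusted over 12 tests of ratios), which is the smallest p that 3 samples against 3 allow.

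Tapbp, which encodes tapasin, and Erap1 fell in both phases. Tapbp was at 477, 443 and 472 CPM at day 0, at 299, 312 and 292 at day 4 and at 242, 248 and 250 at day 8, with no overlap between days. It fell by 0.63 in the early phase (log2 fold change -0.625, SE 0.05, adjusted p = 4.9e-09) and by 0.29 in the late phase (SE 0.05, adjusted p = 0.00012), and ended 1.88-fold lower. Erap1 was at 32.6, 31.9 and 36.1 CPM at day 0, at 23.6, 21.6 and 21.9 at day 4 and at 16.3, 19.0 and 16.6 at day 8. It fell by 0.58 (SE 0.08, adjusted p = 3.4e-06) and then by 0.37 (SE 0.08, adjusted p = 0.0013), again with no overlap between days, and ended 1.94-fold lower.

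The 13 tested genes of a wider class I loading list, chaperones and peptidases that are not among the 48, did not move one way. In the early phase 7 rose (background 35.5%) and 6 fell (33.7%) by adjusted p, with a median of 0.11. Calr (calreticulin), a chaperone of the loading complex, was the only one upregulated (log2 fold change 1.07, SE 0.05, adjusted p = 3.3e-12), from 1083 CPM at day 0 to 2276 at day 4.

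All 3 immunoproteasome subunits fell in the early phase. Psmb10 was at 36.6, 32.8 and 35.7 CPM at day 0, at 23.9, 23.9 and 25.7 at day 4 and at 26.3, 26.7 and 26.5 at day 8. All day 0 samples lay above all later ones. It fell by 0.52 in the early phase (SE 0.06, adjusted p = 2e-06) and remained 0.40 lower at day 8 (log2 fold change -0.40, adjusted p = 2.6e-05). Psmb8 was lower in level, at 5.05, 3.09 and 4.003 CPM at day 0, at 2.04, 1.83 and 1.88 at day 4 and at 3.57, 2.46 and 3.74 at day 8. It fell 2.12-fold (log2 fold change -1.08, SE 0.21, adjusted p = 0.00027) and rose by 0.76 in the late phase (SE 0.22, adjusted p = 0.01), so that day 8 overlapped day 0. Without day 0 replicate 1 its early change was -0.89 (adjusted p = 0.0023), short of 2-fold. Psmb9 was at 4.10, 1.99 and 4.10 CPM at day 0, at 1.49, 2.03 and 1.88 at day 4 and at 2.14, 1.74 and 2.16 at day 8. Its day 0 replicate 2 lay within the range of the later days. It fell by 0.92 in the early phase (SE 0.25, adjusted p = 0.0038). Over the whole process it was 0.76 lower (log2 fold change -0.76, adjusted p = 0.012), and the adjusted p rose to 0.059, 0.065 and 0.052 without day 0 replicate 1, day 0 replicate 3 or day 8 replicate 2.

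The list of constitutive proteasome genes moved in the opposite direction. All 17 tested genes rose by adjusted p in the early phase (background 35.5%), with a median of 0.25. Over the whole process 14 rose (34.8%) and 1 fell (36.2%). Psma1, a subunit of the outer ring, was the only one upregulated (early log2 fold change 1.06, SE 0.08, adjusted p = 4.9e-09). Psmb5, Psmb6 and Psmb7, the subunits that Psmb8, Psmb9 and Psmb10 replace, rose by 0.41 (adjusted p = 2.7e-06), 0.17 (log2 fold change 0.165, adjusted p = 0.0077) and 0.23 (adjusted p = 0.0042).

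As a share of its constitutive counterpart in FPKM, Psmb10 was 24.6% ± 2.77 of Psmb7 at day 0, 14.7% ± 0.66 at day 4 and 16.8% ± 0.659 at day 8. Psmb8 was 4.58% ± 1.14, 1.64% ± 0.177 and 2.70% ± 0.564 of Psmb5, and Psmb9 was 4.61% ± 1.76, 2.16% ± 0.27 and 2.20% ± 0.263 of Psmb6. In all 3 pairs every day 0 sample lay above every day 4 sample, at an exact permutation p of 0.1 each, the smallest possible. All 3 were minor next to their counterparts on every day.

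**Figure D4:**
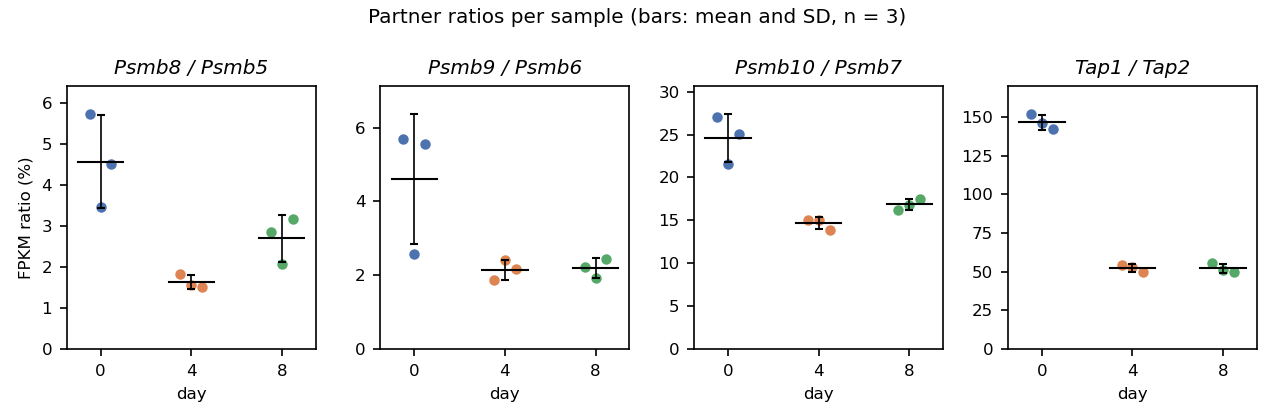
FPKM of the immunoproteasome subunits as a percent of the constitutive subunits they replace, and of Tap1 as a percent of Tap2, in each sample by day, with the mean and SD (n = 3). Every ratio is lower in all day 4 samples than in all day 0 samples, and Tap1 goes from at least 142% of Tap2 to between 49.8% and 55.6%.

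Psme1 and Psme2 encode the subunits of the PA28 activator, which opens the proteasome. Psme1 was at 74.3 ± 2.19, 60.03 ± 4.71 and 66.2 ± 2.95 CPM on the 3 days and fell by 0.31 in the early phase (SE 0.06, adjusted p = 0.00024). Psme2 was at 66.9 ± 2.53, 61.0 ± 9.95 and 77.7 ± 3.10 CPM, did not pass the test in the early phase (-0.13, adjusted p = 0.17) and rose by 0.35 in the late phase (SE 0.08, adjusted p = 0.0031). Over the whole process Psme1 was lower (-0.17, adjusted p = 0.02) and Psme2 higher (0.22, adjusted p = 0.03). Both of these small differences lost significance when single samples were left out, Psme1 in 3 of the 9 cases and Psme2 in 4. Psme2 shares 9.39% of its stretches with the near copy Psme2b.

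Nlrc5 (gene ID 434341), the transactivator of class I genes, was at 24.5, 15.1 and 18.7 CPM at day 0, at 10.4, 9.02 and 10.1 at day 4 and at 7.90, 6.62 and 8.91 at day 8. The days did not overlap, and the day 0 samples varied most. Nlrc5 fell by 0.99 in the early phase (log2 fold change -0.987, SE 0.15, adjusted p = 1.8e-05), just short of 2-fold, and was downregulated 2.50-fold over the whole process (-1.32, SE 0.15, adjusted p = 9.6e-07). The late change of -0.33 did not pass the test (adjusted p = 0.11). Ciita, the transactivator of class II genes, was at or below the floor, with 0 to 2 counts in each sample.

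The transactivation list holds factors and receptors upstream of MHC genes. Of its 19 tested genes, 5 rose (background 35.5%) and 9 fell (33.7%) in the early phase by adjusted p, with a median of -0.09. Ifngr1, a chain of the interferon-γ receptor, was upregulated 3.58-fold (log2 fold change 1.84, SE 0.08, adjusted p = 3.7e-12).

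Cd74 (gene ID 16149), the class II invariant chain, changed most. It was at 42.4, 30.7 and 35.4 CPM at day 0, at 2.94, 3.96 and 3.76 at day 4 and at 8.51, 9.44 and 8.59 at day 8. The days were far apart. Cd74 fell 10.2-fold in the early phase (log2 fold change -3.35, SE 0.13, adjusted p = 2e-12), rose 2.49-fold in the late phase (1.32, SE 0.16, adjusted p = 3.9e-06) and ended 4.09-fold below day 0 (-2.03, SE 0.12, adjusted p = 1.6e-10). The class II chains it serves were barely present: H2-Ab1 had 2 counts in 1 day 0 sample and 0 in the other 8, and H2-Eb2 had at most 2 counts in any sample. No further class II chain is among the 48 genes apart from those of H2-DM and H2-O. H2-Oa, a chain of the inhibitor of H2-DM, had 1 count in 1 sample.

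The chains of the peptide editor H2-DM did not fall. H2-DMb1 was at 2.69, 4.29 and 3.77 CPM at day 0, at 3.59, 4.36 and 3.25 at day 4 and at 5.50, 6.36 and 6.22 at day 8, so all day 8 samples were above all earlier ones. It rose by 0.69 in the late phase (SE 0.17, adjusted p = 0.0032) and 1.69-fold over the whole process (0.76, SE 0.17, adjusted p = 0.00078). H2-DMb2, at 1.17 ± 0.580, 1.86 ± 0.434 and 2.36 ± 0.439 CPM, rose by 0.99 over the whole process (SE 0.29, adjusted p = 0.0066). It lay at the 2-fold line, and its log2 fold change was 1.48 without day 0 replicate 1. H2-DMa rose by 0.28 over the whole process (SE 0.10, adjusted p = 0.018) and by 0.23 in the early phase (adjusted p = 0.048), and these lost significance in 7 and 15 of 20 alternatives, both of them without day 0 replicate 2 (adjusted p = 0.06 and 0.13), day 0 replicate 3 (0.069 and 0.15) or day 8 replicate 1 (0.065 and 0.055). The H2-DMb genes share part of their stretches, 9.73% of H2-DMb1 and 10.19% of H2-DMb2, mostly with each other, and their counts were fractional in every sample.

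On the class II processing list, 7 of 10 listed genes were tested. In the early phase 1 rose (background 35.5%) and 4 fell (33.7%) by adjusted p. Cd80, a costimulatory ligand, was downregulated 3.68-fold over the whole process, from 8.503 to 2.301 CPM (log2 fold change -1.88, SE 0.17, adjusted p = 6.4e-08). Ifi30, a thiol reductase of endosomes, rose over the whole process (0.83, SE 0.06, adjusted p = 5e-09), and Ctsl, a protease that cuts the invariant chain, fell (-0.67, SE 0.06, adjusted p = 3e-08).

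Cd74 is abundant in macrophages, dendritic cells and B cells, so their markers are given beside it. The 10 macrophage and dendritic cell markers together were at 7.65 to 11.6 CPM in every sample, at 9.70, 10.9 and 11.6 at day 0, 8.61, 9.19 and 9.91 at day 4 and 8.51, 9.53 and 7.65 at day 8. The most abundant was Cd14, with 134, 139 and 169 counts at day 0 and 78 to 114 later. The defining marker Ptprc (CD45) had 0 to 4 counts per sample and Adgre1 (F4/80) had 2 counts in 1 day 4 sample and 0 elsewhere. Of the 4 tested markers Cd14 alone passed the test in the early phase, where it fell (-0.45, adjusted p = 0.0084). Others on the list were higher after day 0 at low counts. Csf1r had 18, 15 and 21 counts at day 0 and 29, 35 and 25 at day 4, which did not pass the test in edgeR (log2 fold change 0.76, SE 0.33, adjusted p = 0.05 after rounding). Mrc1 went from 1, 1 and 2 counts to 9, 8 and 10 at day 4 and back to 0, 1 and 2 at day 8, and Itgax from 0, 1 and 0 at day 0 to 3.24, 11.6 and 6.49 at day 8; neither passed the filter on low counts. The 5 fibroblast and preadipocyte markers together were at 13510, 13420 and 14040 CPM at day 0, 9746, 9847 and 9073 at day 4 and 16350, 16100 and 16330 at day 8, lowest at day 4 with no overlap between days. The most abundant, the collagen chain Col1a1, made up most of these sums, and changed by -0.18 on the log2 scale early (edgeR, adjusted p = 0.0055) and by 0.85 late (adjusted p = 1.7e-09). The preadipocyte marker Dlk1 changed by -2.13 (adjusted p = 3.4e-14) and by 1.25 (adjusted p = 9.3e-11) and Thy1 by -0.44 (adjusted p = 6.9e-07) and by 0.45 (adjusted p = 1.6e-06), whereas Pdgfra went the other way, by 0.84 (adjusted p = 4.3e-10) and -0.59 (adjusted p = 1.2e-07). Cd34, the fifth, had 7 to 34.83 counts per sample. The list was thus lowest on the same day as B2m and the summed class I heavy chains, and its part in their changes was not tested. B cell markers came to 0 to 3 counts per sample, T and NK cell markers to 10 to 23.94, nearly all of Cd8a, and endothelial markers to 10 to 40. The endothelial sum was 40, 22 and 36 counts at day 0 and 25, 22 and 20 at day 8. Within it Pecam1 was upregulated over the whole process (1.10, adjusted p = 0.011) at 6 to 20 counts per sample. Cdh5 went from 15, 10 and 10 counts at day 0 to 2, 2 and 1 at day 8 and Tek from 16, 4 and 18 to 3, 8 and 0, and neither passed the filter on low counts.

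H2-Ke6, the hydroxysteroid dehydrogenase, was at 8.54, 6.28 and 8.85 CPM at day 0, at 17.1, 18.5 and 22.2 at day 4 and at 20.3, 20.7 and 21.7 at day 8. Every later sample was above every day 0 sample. It was upregulated 2.43-fold in the early phase (log2 fold change 1.28, SE 0.12, adjusted p = 9.2e-08) and stayed there (late phase 0.12, adjusted p = 0.39). The overlapping gene Gm20427 holds 17.51% of its stretches.

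Genes that lie in the MHC region but take no part in antigen processing were also counted. In edgeR, 0 of the 16 was up- or downregulated in any comparison. By adjusted p 4 rose (background 35.5%) and 5 fell (33.7%) in the early phase, with the same counts by unadjusted p. Their early median was 0.04. Tubb5, a β-tubulin, fell most (early log2 fold change -0.91, SE 0.05, adjusted p = 1.1e-10), from 1411 to 752 CPM.

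On the fixed list of interferon-stimulated genes outside antigen processing, almost all were lower after day 0. Of 28 tested, 27 were downregulated both early (median -3.09, background 7.98%) and over the whole process (median -2.61, background 7.7%). Gbp5 did not pass in either comparison (-0.06, adjusted p = 0.89, and 0.12, adjusted p = 0.78); it is named because it was the exception. The steepest early falls were those of Ifi44 (-5.06, SE 0.18, adjusted p = 6.7e-13), Ifit3 (-4.72, SE 0.20), Ifit1 (-4.67, SE 0.18) and Oasl2 (-4.58, SE 0.15). In the late phase Ifit1 and Ifit3 were upregulated (background 4.24%) and 13 of the 28 rose by adjusted p (22.5%), with a median of 0.39. Summed over the list, CPM was 2736, 1832 and 2112 at day 0, 263, 246 and 286 at day 4 and 351, 342 and 330 at day 8.

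**Figure D5:**
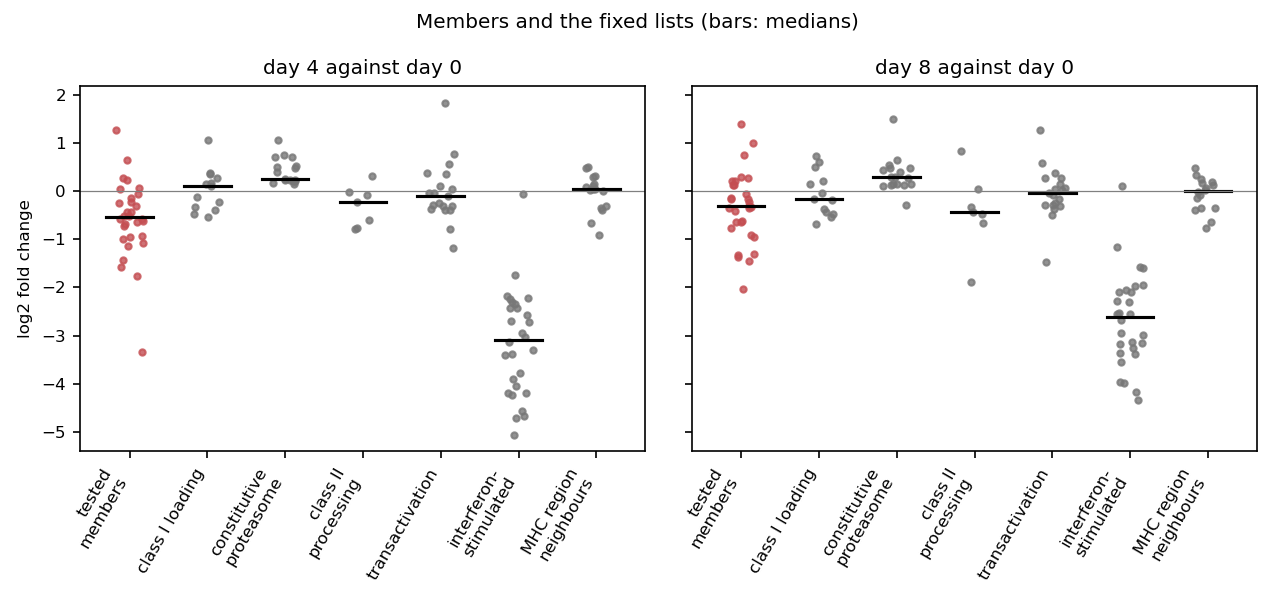
Log2 fold change of each tested gene for the early phase (left) and the whole process (right), for the 30 genes described here and 6 lists of related genes, with bars at the medians. The interferon-stimulated list lies lowest, with medians of -3.09 and -2.61, the 30 genes at -0.54 and -0.32, and the constitutive proteasome above 0.

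The replicates of day 0 differed in a common order. Day 0 replicate 2 had the lowest CPM of the 3 in 24 of the 30 tested genes, and replicate 1 the highest in 22. The interferon-stimulated list had the same order in sum, and its part in the spread was not tested. Day 0 replicate 2 was also the shallowest sample, at 18216114 expected counts. Without day 0 replicate 1 the early phase gave 4 downregulated genes in place of 6, and without day 0 replicate 2 it gave 9. Over all tested genes these fits gave 1081 and 1036 downregulated, against 1050 with all samples. The early falls of B2m (-1.02 to -0.90), Cd74 (-3.45 to -3.22), Tap1 (-1.55 to -1.30) and Tapbp (-0.66 to -0.60) held in edgeR with any 1 of the 9 samples left out.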

How the data were processed

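RNA-seq of 3T3-L1 cells at 3 stages, with 3 replicates each, was analysed from the deposited tables, 1 per sample. The authors filtered the reads, mapped them with HISAT/Bowtie2 and quantified genes by RSEM; CASAVA 1.4 and Bowtie2 are named in the submitters' processing notes, and the genome build is not given in the sources used here. Expected counts were deposited as RSEM gave them, without normalization, and 29.83% of those above 0 are not whole. FPKM, also deposited, had been scaled by the authors for gene length and depth. Groups and replicate numbers come from the sample titles. Gene IDs matched the reference gene table for 19040 of 19094 genes, and 26 symbols that read as dates were recovered through the ID.

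After rounding, the counts were fitted in edgeR 4.0.16 under R 4.3.3: filterByExpr by day, TMM factors (0.954 to 1.05), and glmQLFit and glmQLFTest with all 9 samples and 1 coefficient per day. Benjamini-Hochberg adjustment covered all 13154 tested genes. Calls required a fold change above 2 with an adjusted p under 0.05. The SE is the log2 fold change divided by the square root of F. On simulated data with 200 changed genes among 13154, edgeR recovered 200 and called 2 unchanged genes. Ratios of FPKM were compared by exact permutation tests. Shared stretches of 50 bases were counted in GENCODE vM21 transcripts, with over 20% taken as uncertain, and promoters came from RefSeq (GRCm38.p6). Replicates differed by more than sampling noise, so none was merged. Depth sets the counting error, and the spread between replicates adds to it. The reads carry no molecular identifiers, so amplification copies could not be counted apart.

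The members and lists were chosen with earlier results of these data known. Any member could be named, and of each list the 4 tested genes with the largest change at most, the subunits Psmb5, Psmb6 and Psmb7, and defining cell type markers. Of the genes so allowed, 1 was left out of the text. The alternatives were other scaling factors, DESeq2 1.42.0, edgeR's exact test, limma 3.58.1 on log2(FPKM + 1) and log2(FPKM + 0.1), other filters, only the 2 days compared, a replicate block, adjusted p alone, class I genes summed, and each sample left out. Quantitative RT-PCR, staining and tissue of mice were not analysed here.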

Additional observations from a re-analysis of the deposited data

How the results depend on the processing

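For single members that passed the test, 1084 values under the alternatives kept their direction, their significance and any 2-fold size they had. Another 54 lost significance or the 2-fold size, and 0 turned direction. The 1084 include values that went past 2-fold where the main fit fell short. Among these were B2m and Nlrc5 in the early phase, H2-T22 in the late phase and Tapbp over the whole process. With adjusted p alone in place of both thresholds, the early phase gave 3 genes up and 19 down, the late phase 10 up and 3 down, and the whole process 6 up and 16 down. With the class I genes summed into 1, there were 3 downregulated in the early phase and 3 for the whole process. Over the whole process 2 were upregulated with RLE factors, with DESeq2, without a filter and with only the 2 days compared, since H2-DMb2 lies at the 2-fold line. The limma fit on log2(FPKM + 1), which shrinks changes of low genes by construction, gave 3 downregulated over the whole process, where H2-Q5, H2-T24 and Nlrc5 fell short of 2-fold and Tapbp passed it (log2 fold change -1.01). Leaving out 1 sample at a time gave 1 to 2 upregulated and 4 to 9 downregulated in the early phase, 1 to 2 and 0 to 0 in the late phase, and 1 to 2 and 5 to 7 over the whole process. The second upregulated gene appeared without day 0 replicate 1 in the early phase, without day 4 replicate 1 or 2 or day 8 replicate 1 or 2 in the late phase, and without day 0 replicate 1, day 4 replicate 2 or day 8 replicate 1 or 2 over the whole process. In these fits 1036 to 1154 of all tested genes were downregulated in the early phase and 1014 to 1076 over the whole process. Library size alone moved the median log2 fold change of all genes to -0.129 over the whole process, where TMM gave -0.02. The small whole-process changes of H2-DMa, H2-M3 and Psme2 lost significance in 7, 7 and 8 of 20 alternatives, and genes with under 20 counts in a sample are limited by depth.

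A replicate block, with the replicate number as a factor, gave 1 upregulated and 6 downregulated members in the early phase, 1 and 0 in the late phase, and 1 and 5 over the whole process, the same counts as without it, and the early rise of H2-DMa passed the test without the block only (adjusted p = 0.053 with it). Whether the numbers pair the samples could not be settled by correlations this weak. Deviations of same-numbered samples correlated at 0.0308 on average, none of 9 pairs above 0.1, and those of other-numbered samples at -0.0154. Of the 9 samples, 6 correlated best with a sample of their own number.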
